A study of Drosophila melanogaster with 2 samples.

Results

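The Antennapedia complex is the cluster of homeobox genes on chromosome arm 3R that patterns the head and anterior trunk of Drosophila melanogaster. The authors' region lists hold places called as enriched in a Deformed chromatin immunoprecipitation (ChIP). In the larger list, 16 of 3898 regions had their centre in a 410 kb stretch of 3R that was taken to hold the complex. In the stricter list 7 of 1079 did. The false discovery rate given by the caller, explained below, was 100% for each of them. Members were chosen by position alone, in the coordinates of the deposited lists. That this stretch holds lab, pb, zen, bcd, Dfd, Scr, ftz and Antp rests on reading those coordinates as Release 5 of the fly genome, which no source used here names. If they were read as Release 6, 0 of these 8 genes would lie in it. No gene positions on the build of the lists were used here, so each region is named by its position and none is assigned to a single gene.

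The study compared 1 Deformed ChIP library with 1 mock library, both from wild-type Oregon R embryos aged 5 to 9.5 hours, at stages 9 to 12, with no transgene or mutation in either. A guinea pig antibody against Deformed was used for the first and guinea pig IgG for the second. Chromatin came from whole embryos, so nuclei that lack Deformed contributed to both libraries. The Deformed library held 20112283 tags (mapped reads) before the caller's duplicate filter and 15547495 after it, with a redundant rate of 0.23. The mock library held 13016695 before and 12694075 after, with a redundant rate of 0.02. Each group is 1 library, so no value below has a replicate error and no difference was tested. Intervals are exact 95% intervals that cover counting error only, and tags are not independent molecules.

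Hox genes encode homeodomain transcription factors that give body segments their identity. Deformed, the product of Dfd, does this for the mandibular and maxillary segments, and it is known to act on an enhancer of its own gene, which keeps Dfd on once early cues have gone. Of its neighbours in the complex, lab acts in the intercalary segment of the head, pb in the mouthparts, Scr in the labial and first thoracic segments and Antp in the thorax. The other 3 of the 8 genes named above have a homeobox but are not homeotic. Of these, zen specifies dorsal tissue such as the amnioserosa, bcd encodes the maternal determinant of the anterior pole, and ftz is a pair-rule gene. Among the 8 named genes the order on the arm, taken from RefSeq's Release 6 gene table, was lab, pb, zen, bcd, Dfd, Scr, ftz, Antp. Dfd is number 5 of these 8. By the same annotation, 6 genes start between bcd and Dfd and 9 between Dfd and Scr, of which 5 and 9 do not code for protein.

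The question closest to this complex is whether Deformed occupies DNA of Dfd itself. The lists show where in the complex regions were called. Which of these regions lie in or beside Dfd cannot be read from the lists without gene positions on their own build. The stretch densest in larger-list regions is described first, without a gene name, and its density does not tell whether it lies at Dfd. In the larger list 5 of the 16 regions lay within 16.1 kb, from 2611661 to 2627730 on 3R, and 3 of these lay within 1.09 kb at its upper end. This stretch was singled out after the positions were seen.

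The first of the 3 close neighbours, at 2626643 to 2626857, was 215 bases long and held 30 tags (95% Poisson interval 20.2 to 42.8). Its enrichment at the summit over the caller's background, the fold given in the lists, was 5.67, and its score was 53.77. The score is 10 times the negative log10 of the caller's p-value. It ranked 453 of 3898 by score, in the top 11.6% of the larger list, and 386 by fold, in the top 9.9%. It stood in both lists with the same start, end, tags, score and fold. Only 62 bases further, the region at 2626920 to 2627075 held 18 tags (10.7 to 28.4) at a fold of 3.81 and a score of 30.75, close to the cutoff of 30. The third, at 2627516 to 2627730, began 440 bases after that and held 22 tags (13.8 to 33.3) at a fold of 4.20 and a score of 40.3. The tag intervals of the 3 neighbours overlap, but their counts were not compared by a test. The regions also differed in length, at 215, 156 and 215 bases, and in score.

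The other pair of this stretch lay 12.8 kb lower. The region at 2611661 to 2611830 held 20 tags (12.2 to 30.9) at a fold of 5.18 and a score of 41.13, and it was present in both lists. Its neighbour at 2613690 to 2613844, 1.86 kb away, held 16 tags (9.15 to 26.0) at a fold of 3.58 and a score of 30.72. Each of the 2 sites in the stretch thus had a region that met the stricter cutoff and at least 1 weaker neighbour found only at the looser one.

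The spacing of these regions was compared with that of the arm. Among the 920 runs of 3 consecutive larger-list regions on 3R, 1 was as short as 1088 bases, and that was this one, while the median run of 3 spanned 43 kb. On the 5 long arms outside the centromeric 2 Mb, 2 of 3130 such runs were as short, this one included. The run of 5 was less unusual, with 13 of 918 runs on 3R (1.42%) spanning 16.1 kb or less against a median of 99.1 kb. By a limit not set by this run, neighbours less than 1 kb apart, the arm held 4 groups of 3 or more and the whole larger list 63, with up to 9 regions in a group. Of the 63, 16 lay outside the centromeric 2 Mb and chromosome 4. These runs overlap each other and the stretch was picked for its density, so the counts are descriptions and not a test. Whether the 3 neighbours are separate sites or pieces of 1 broader enriched place was not tested. In the stricter list only the first of them, at 2626643 to 2626857, was called, with the same bounds, and the others had no counterpart.

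**Figure D1:**
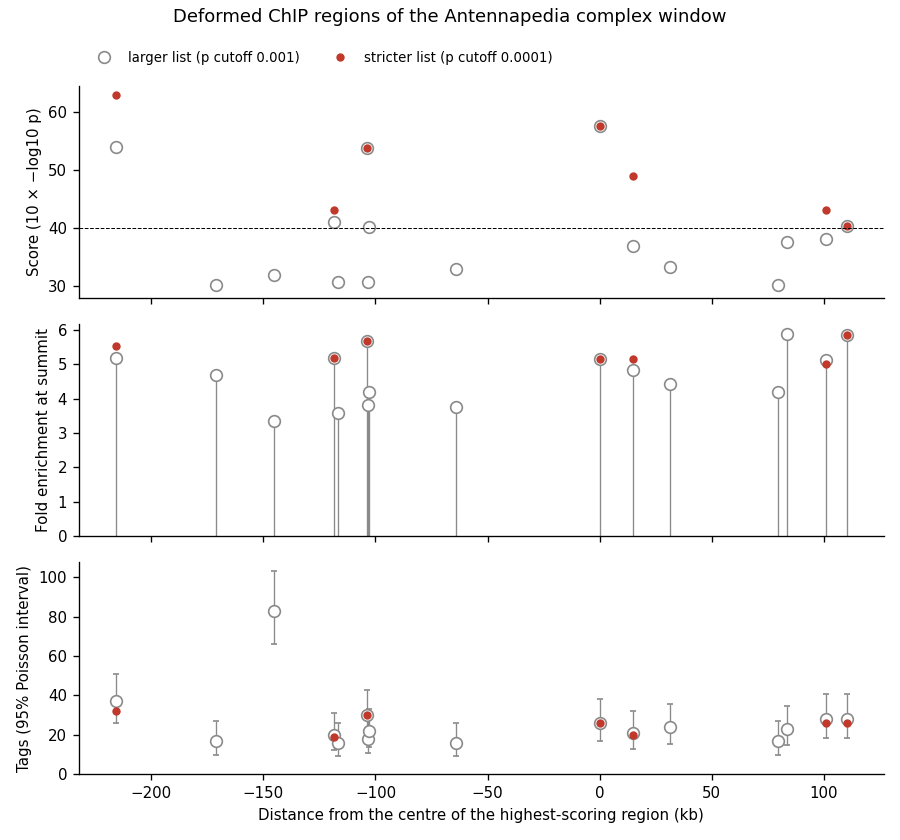
Score, fold enrichment and tags (vertical axes) of each region of the Antennapedia complex window against distance in kb from the centre of the one with the highest larger-list score, in the larger list (open circles, n = 16) and the stricter list (red, n = 7); bars in the lowest panel are 95% Poisson intervals of the larger-list counts and the dashed line marks a score of 40. Scores ran from 30.21 to 57.59 in the larger list, and 5 of its 16 regions sat in the 16.1 kb stretch where symbols crowd.

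Along the rest of the complex, 3 regions lay on the low-coordinate side of this stretch. The outermost, at 2514191 to 2514494, held 37 tags (26.1 to 51.0) at a fold of 5.17 and a score of 54.04. In the stricter list it was called from 2514244 to 2514481, with 32 tags, a fold of 5.52 and a score of 62.98, and there it was the highest-scoring region of the complex, at rank 279 of 1079, or 99 of 679 when the centromeric 2 Mb of each long arm and chromosome 4 were left out. The next, at 2558904 to 2559081, was among the weakest of the complex, with 17 tags (9.9 to 27.2), a fold of 4.67 and a score of 30.23.

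The third, at 2584624 to 2585143, differed in kind from the others. It was 520 bases long and held 83 tags (66.1 to 103.0), the most in the complex and the only count whose interval lay above that of every other member. It also had the lowest fold of the 16, at 3.35, and a score of only 31.97. By tags it was in the top 5.13% of the larger list, at rank 200, and by fold it stood at rank 3691. At 16.0 tags per 100 bases it was also the densest member. Many tags therefore went with weak enrichment here, and the stricter list had no region at this place.

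On the high-coordinate side of the dense stretch a single weak region, at 2666378 to 2666531 with 16 tags, a fold of 3.74 and a score of 32.96, stood between gaps of 38.6 kb and 63.7 kb. The second of these gaps was the widest between neighbouring members of the larger list. After it came the region with the highest larger-list score of the complex, at 2730221 to 2730437, with 26 tags (17.0 to 38.1), a fold of 5.14 and a score of 57.59. It ranked 382 of 3898 by score, in the top 9.8%, but 740 by fold and 1351 by tags. Without the centromeric 2 Mb and chromosome 4 it ranked 171 of 3140, in the top 5.45%. Like the region at 2626643, it had the same values in both lists.

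The remaining 6 regions lay above it. The one at 2745233 to 2745401 held 21 tags (13.0 to 32.1) with a 4.83-fold enrichment, and the next, at 2761753 to 2761987, held 24 tags (15.4 to 35.7) with a 4.43-fold enrichment. Near 2.81 Mb, the regions at 2809897 to 2810056 and 2813961 to 2814192 were 3.9 kb apart. The first had the lowest score of the complex, 30.21, at rank 3836 of 3898, with 17 tags at a fold of 4.20. The second had the highest fold of the complex, 5.88, with 23 tags (14.6 to 34.5) and a score of 37.61. In the larger list it ranked 332 by fold, but 1684 by score and 1740 by tags, and it was absent from the stricter list. The last pair, 9.24 kb apart, held 28 tags each (18.6 to 40.5), at 2831215 to 2831459 with a fold of 5.11 and at 2840697 to 2840934 with a fold of 5.86. Both were in the stricter list too. Beyond the ends of the window the nearest larger-list regions began at 2415740, with 28 tags at a fold of 3, and at 2874182, with 17 tags at a fold of 4.16.

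Taken as a list, the members of the complex resembled the larger list they came from. Their median was 22.5 tags against 22 for all 3898 regions, their median fold 4.75 against 4.48, their median score 37.26 against 36.26 and their median length 215 against 201 bases. Of the 16, 8 lay above the list's median in tags and 9 in each of fold, score and length. A score less than 5 above the cutoff was found for 7 of the 16 (43.8%) and for 42.8% of the whole list. On the rest of arm 3R, with 906 regions, the medians were 22 tags, a fold of 4.33 and a score of 35.61.

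In the stricter list the 7 members had a median of 26 tags against 27 for all 1079 regions, and their median score, 48.98, equalled that of the list. Their folds ran from 4.99 to 5.85 with a median of 5.18 against 5.04, and 6 of the 7 lay above the list's median fold. Only 2 of the 7 were above its median in tags. By score the 7 ranked from 279 to 1051 of 1079, the last being the region at 2840697 with 40.48. A score less than 5 above the cutoff of 40 was found for 3 of the 7 (42.9%). The share was 34.6% in the whole stricter list and 45.9% on the rest of 3R. The rest of 3R in this list, 183 regions, had medians of 23 tags, a fold of 4.94 and a score of 45.93.

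**Figure D2:**
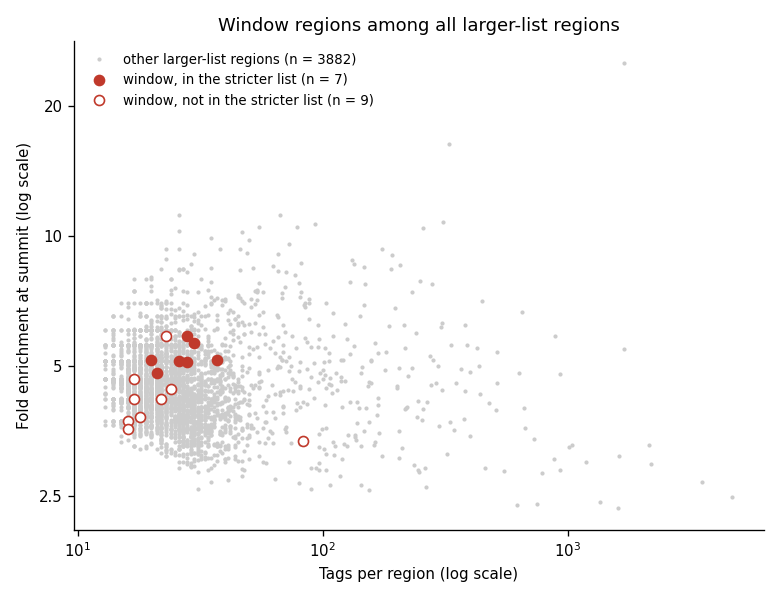
Fold enrichment at the summit against tags per region, both on log scales, for the larger list; red circles are the 16 regions of the complex, filled where they overlap a stricter-list region (n = 7) and open where they do not (n = 9), and grey points are the other 3882 regions. The members lie within the main cloud, 15 of them between 16 and 37 tags, and the one to the right of the rest has 83 tags at a fold of 3.35.

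No member of the complex was separated from the mock library by the authors' false discovery rate (FDR), a percent that sets regions found with the libraries exchanged against those found as labelled. It was 100% for 16 of 16 members in the larger list and 7 of 7 in the stricter one. An FDR under 100% was rare in general: 0.539% of larger-list and 1.85% of stricter-list regions had one. A count of 0, with 3 counts of the total as the limit, allows a share of up to 18.8% of 16 and 42.9% of 7, and the exact upper limits are 20.6% and 41%, so the members' counts do not differ detectably from these backgrounds. At the scores of the members, regions enriched in the mock over the Deformed library were at least as many as regions called as labelled, by the caller's definition of this rate.

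The filtered Deformed library held on average 13.0 tags per 100 bases of the 120 Mb effective genome. Of the 16 larger-list members 2 exceeded this, the 520-base region with 16.0 and the region at 2626643 with 14.0, while the others had 9.55 to 12.4. In the whole larger list 15.8% of regions exceeded it. Of the 7 stricter-list members 3 did, beside 51.5% of that list. The folds of 3.35 to 5.88 compare the summit with the caller's background, so they are a different quantity from the rate over a whole region. That background was not recomputed here, and why most members lie below the library's average rate was not tested.

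The stricter cutoff kept 7 of the 16 members, 43.8% (exact binomial interval 19.8 to 70.1%), against 26.4% of all larger-list regions that overlapped a stricter one, a background that lies within the members' interval. A score of at least 40 in the larger list, the value of the stricter cutoff, was reached by 6 of the 16 members, 37.5%, against 33.8% of the whole list. These 6 and the 7 were not the same places. The region at 2627516 had a score of 40.3 in the larger list and no counterpart in the stricter one. In the other direction, the regions at 2745233 and 2831215 had scores of 36.91 and 38.12 in the larger list and entered the stricter list with 48.98 and 43.13. Of the 1033 stricter regions with a counterpart in the larger list, 118 (11.4%) had a larger-list score under 40 in this way.

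The summits of the 7 shared places were at the same base in both lists, as were those of 950 of 1033 stricter regions with a counterpart. Of the 7, 2 kept their bounds and 5 were shorter in the stricter list, by 18 to 66 bases. The score of each of these 5 was higher there, by 0.01 at 2840697, 1.99 at 2611661, 5.01 at 2831215, 8.94 at 2514191 and 12.07 at 2745233, although each held 1 to 5 fewer tags. Over the whole stricter list the score was higher in 309 and lower in 216 of the 1033. The order of the members by score thus depends on the list. The region at 2730221 led in the larger list and the one at 2514244 in the stricter list. Both lists come from the same pair of libraries, so presence in both is not a replication.

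**Figure D3:**
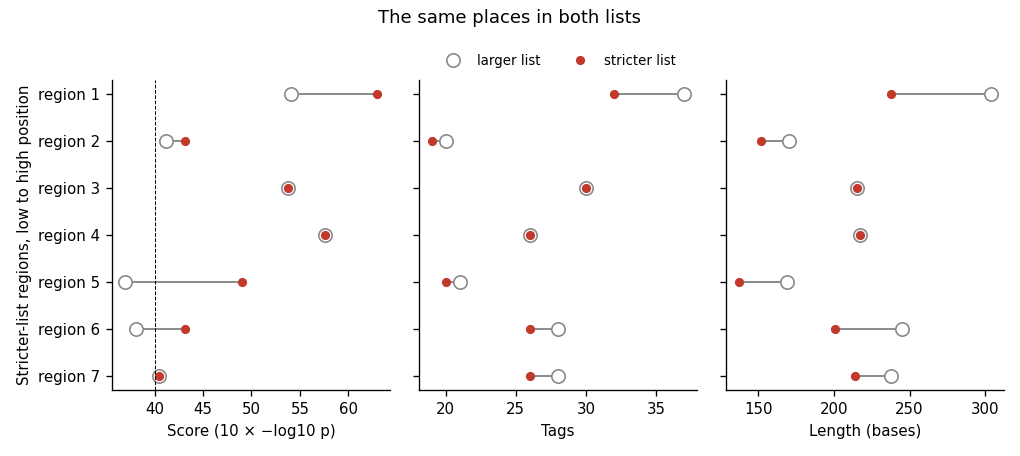
Score, tags and length in bases (horizontal axes) of the 7 stricter-list regions of the complex, ordered from low to high position (region 1 begins at 2514244 and region 7 at 2840697), with the larger-list value of the same place as an open grey circle and the stricter-list value in red; the dashed line marks a score of 40. Regions 5 and 6 lie below 40 in the larger list, at 36.91 and 38.12, and above it in the stricter list.

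The complex held more stricter-list regions than most stretches of 3R of its length, while its number of larger-list regions was near that of the rest of the arm. The 7 stricter regions (Poisson interval 2.81 to 14.4) amount to 17.1 per Mb, against 6.67 per Mb on the rest of 3R, a ratio of 2.56 (1.03 to 5.28). The lowest-scoring of these 7, at 2840697, had a score of 40.48, close to the cutoff of 40. The 16 larger-list regions (9.15 to 26.0) amount to 39.0 per Mb against 33.0, a ratio of 1.18 (0.676 to 1.92). Against all 5 long arms outside the window, with their centromeric ends, the stricter ratio was 1.96 (0.787 to 4.03) and its interval included 1. Against the rest of 3R without its centromeric 2 Mb it was 2.59 (1.04 to 5.33). After regions less than 10 kb apart were merged, the ratio to the rest of 3R was 2.43 (0.893 to 5.30), with 6 regions left in the complex. The intervals treat regions as independent and leave out the error of the arm's own density, so they are descriptions.

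Arm 3R was also divided into 66 consecutive windows of the same length as this one, a division made after the data were seen. In the stricter list the median window held 2 regions, 1 window held more than the complex, with 8, and 1 other also held 7. In the larger list the median was 13, and 15 windows held more than the 16 of the complex, up to 29. The high place of the complex thus holds for the stricter list and not for the larger one.

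**Figure D4:**
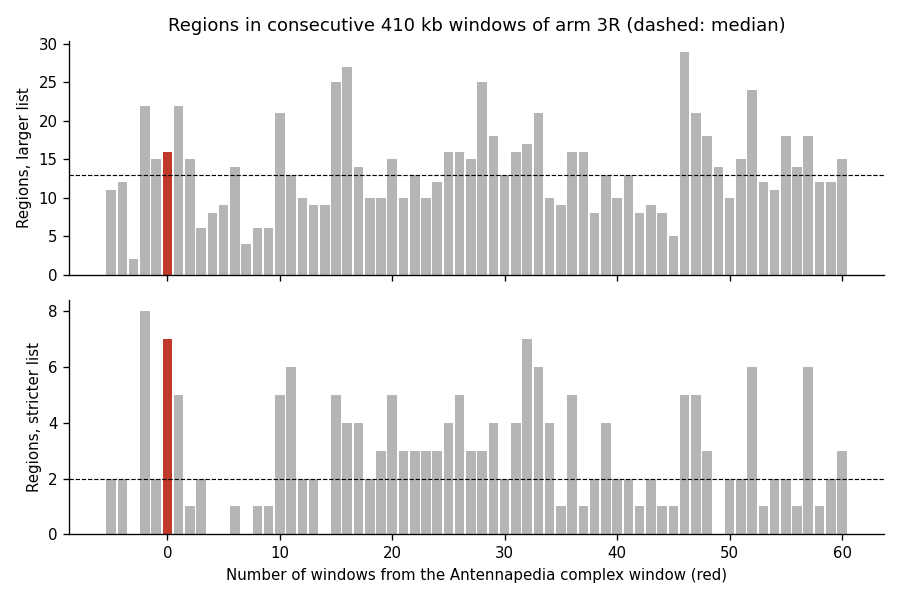
Number of regions (vertical axes) in 66 consecutive 410 kb windows of arm 3R, by the number of windows from that of the Antennapedia complex (red), in the larger list (top) and the stricter list (bottom), with the median as a dashed line. The complex holds 7 stricter regions against a median of 2, and 16 larger-list regions against a median of 13.

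Spacing between members varied widely. In the larger list the gaps between neighbours ran from 62 bases to 63.7 kb, beside a median gap of 16.9 kb on the whole of 3R. In the stricter list they ran from 9.24 kb to 103 kb, beside a median of 88.8 kb. The 7 stricter regions fell into 3 pairs with gaps of 14.8, 14.8 and 9.24 kb, and 1 single region, at 2514244, which stood 97.2 kb from the next. Each pair was separated from the following one by at least 85.9 kb. The first pair lies in the dense stretch described at the outset, and the second begins with the highest-scoring region of the larger list.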

How the data were processed

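The submitters' processing notes name Bowtie as the aligner, and regions were called with MACS 1.4.0beta, per the file headers, with the Deformed library against the mock library, a fragment length of 50 bases, a tag size of 40 bases, at most 4 (Deformed) and 3 (mock) tags per position and local backgrounds over 1000 and 10000 bases. The aligner's version is not given in the sources used here, nor is the genome build. The deposited lists used p-value cutoffs of 0.001 (larger list) and 0.0001 (stricter list). The deposited tags are whole-number counts per region. The deposited score is the negative log10 of the caller's p-value multiplied by 10. The deposited fold is a ratio of summit tags to the caller's background, and the deposited FDR is a percent. These are the authors' own values per region. The mock library's tags per region were not used here.

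Members were regions with their centre in the window. Ranks are by score, then fold, then tags, within a list. Overlap means at least 1 shared base. On 3R, 564 of the 4226 genes in RefSeq's Release 6 table start past the last deposited region, and that table was used for gene names and order and for this check of the build, not to place regions. Values were computed in pandas 2.3.3, numpy 2.4.6 and scipy 1.17.1 and drawn in matplotlib 3.10.9 (Python 3.11.15), and the counting was checked on made-up lists. The rule for named items was to give the 8 genes, every stricter-list member and the 10 highest-scoring larger-list members. The members, lists and comparisons were chosen with earlier results of these data known. Alternatives covered how a region is placed in the window, the window's limits, merging, ranking, the cutoff and the overlap.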

Additional observations from a re-analysis of the deposited data

How the results depend on the processing

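Of 29 recomputed values for 9 results, 23 stayed close and 6 did not, where close means within 1.5 times for counts and ranks and within the counting interval for density ratios, medians and the share. The larger-list count of 16 fell to 6 with a score of at least 40, and the stricter count of 7 fell to 3 in the higher-scoring 50% of that list, both by construction, since fewer regions remained. The rank of the highest-scoring larger-list member, 382, became 740 by fold, 1351 by tags and 171 of 3140 without the centromeric 2 Mb and chromosome 4. That of the highest-scoring stricter-list member, 279, became 99 of 679 without them. Those places made up 19.4% of the larger and 37.1% of the stricter list, but 55.4% and 64.7% of the regions ranked above these members. The cause of the ranks by fold and tags was not tested. Widening or narrowing the window by 50 kb at each end gave 22 and 13 larger-list and 8 and 5 stricter-list regions. The density ratios ran from 1.17 to 1.30 in the larger and from 1.96 to 2.59 in the stricter list. Counts of 16 to 83 tags per member limit what can be told apart. No paired analysis was possible because each group is 1 library.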
